A study of Mus musculus with 8 samples.

Results

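Described here are 10 genes that handle lipid peroxides or belong to the antioxidant programme of the transcription factor NRF2, in mouse bone marrow cells that carry CD11c. They were picked by symbol, and 9 of the 10 had a row among the 11756 genes of the deposited table. These are Nfe2l2, Keap1, Gpx1, Gpx4, Prdx1, Srxn1, Txnrd1, Gclm and Nqo1. Hmox1 was not analysed here. Marrow came from femurs and tibias of C57BL/6 mice, CD11c positive cells were obtained by flow cytometry, and RNA was measured in 4 libraries of cells given acetylated low density lipoprotein (acLDL) and 4 libraries of control cells. The lipoprotein, a modified form that scavenger receptors take up, was added on culture day 6 for 24 h, and the series presents it as a stand-in for atherosclerotic surroundings. No allele or further agent is named for either group. Whether libraries of the same group stem from different mice or cultures is not stated, so the p-values speak only for the spread among libraries, which may be technical.

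NRF2, encoded by Nfe2l2, is controlled mainly through its protein: KEAP1 holds it for ubiquitination by a CUL3 ligase, and oxidants or electrophiles that modify KEAP1 let it accumulate. NRF2 then pairs with a small MAF protein and binds antioxidant response elements beside genes for glutathione synthesis, thioredoxin reduction and quinone removal. Lipid peroxides, which form when polyunsaturated lipids of membranes or lipoproteins are oxidised, are reduced by GPX4, and loss of this enzyme permits the iron-dependent death called ferroptosis.

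The element that ties the NRF2 targets together was searched in the RefSeq promoter windows of GRCm38.p6, which run from 250 bases before to 50 bases after a transcript start. All 9 genes had at least 1 window. The core was spelled TGACNNNGC and searched on both strands. A match was found for 5 of the 9 genes, in 5 of their 14 windows, against 12.4% of all 32851 windows and 14.0% of 27025 genes. The genes with a match were Nfe2l2, Srxn1, Gclm, Prdx1 and Txnrd1. Nqo1, Keap1, Gpx1 and Gpx4 had none, which says only that these letters are absent from these windows. Of the matches, 4 lie before the start and are shown with their flanks. The core searched is part of the element through which NRF2 recognises its targets. Capitals mark the match to the core, and letters run 5′ to 3′ on the gene's strand.
Gclm, chr3:122245393-122245461, plus strand: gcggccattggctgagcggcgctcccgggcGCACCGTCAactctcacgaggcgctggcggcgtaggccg
Prdx1, chr4:116685436-116685504, plus strand: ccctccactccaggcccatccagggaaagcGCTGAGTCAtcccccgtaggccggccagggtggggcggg
Txnrd1, chr10:82859084-82859152, plus strand: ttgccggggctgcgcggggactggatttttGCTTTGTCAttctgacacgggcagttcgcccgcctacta
Nfe2l2, chr2:75704865-75704913, minus strand: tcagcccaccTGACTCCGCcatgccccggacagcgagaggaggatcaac
In Gclm, Prdx1 and Txnrd1 the core reads on the opposite strand of the gene, and in Nfe2l2 on the gene's own strand. The Prdx1 match overlaps TGANTCA, the core bound by AP-1 factors, which 7.81% of all windows hold. The Txnrd1 window belongs to an internal start of that gene. A match in letters is not evidence of binding in these cells.

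All values below are the authors' normalized values, which are not read counts. Their totals ranged from 3917426 to 4385051 per library, and the lowest value above 0 lay just above 5. For the comparison, log2(value + 5) was fitted with limma for 10091 genes that reached 10 in at least 4 libraries, and all 9 genes passed that filter. No gene of the whole table passed the adjusted threshold of 0.05, and the smallest adjusted p was 0.298. The unadjusted p was under 0.05 for 1650 genes, or 16.4% of those tested. Libraries also differed in the level of short transcripts. An index of short transcripts, the mean log2 deviation of 488 other genes with no coding transcript of 1000 nt or more, was 1.11, -1.36, -2.25 and -0.30 in acLDL libraries 1 to 4. In control libraries 1 to 4 it was 0.06, 0.94, 1.07 and 0.72. acLDL libraries 2, 3 and 4 were below every control in this index, and acLDL library 1 was above every control. Over all tested genes, the first principal component, the main axis of variation, held 62.6% of the variance. It was highest in acLDL libraries 3 and 2, where the index was lowest. In both measures acLDL library 4 and control library 1 came next. Whether the index reflects transcript length or a wider difference between libraries was not tested. As acLDL libraries 2, 3 and 4 lay below every control, the index and the acLDL group cannot be fully told apart. A fit with the index may therefore also take away part of a difference between the groups.

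The CD11c label was checked against marker genes. Itgax, which encodes CD11c, had 189, 10.004, 0 and 42.7 in acLDL libraries 1 to 4 and 81.5, 182, 195 and 172 in control libraries 1 to 4. The 12 markers of conventional dendritic cells were all listed in the table, with summed values of 32272 to 45069 with acLDL and 25768 to 30202 in controls. Most of that sum was the MHC class II gene H2-Eb1, with 23144 to 44279 with acLDL and 18386 to 26611 in controls. Of the other markers of the list, Cd74, Flt3 and Zbtb46 had lower means with acLDL, and the rest are not reported here singly. Cd74 averaged 1185 ± 1634 with acLDL and 2137 ± 890.4 in controls. Flt3 averaged 6.09 ± 7.07 with acLDL and 11.3 ± 7.86 in controls, and Zbtb46 7.58 ± 11.7 and 11.5 ± 6.45 (SD, n = 4 each). The 10 macrophage markers summed to 9038 to 12614 with acLDL and 8188 to 9825 in controls. Granulocyte markers, 8 of 9 listed, summed to 489 to 10844 with acLDL and 5119 to 12773 in controls, and the 4 monocyte markers to 882 to 2257 with acLDL and 2110.2 to 2608 in controls. The 2 lymphocyte markers listed summed to at most 76.8 with acLDL and 31.4 in controls. The 2 erythroid and megakaryocyte markers listed summed to 65.0 to 1364 with acLDL and 751 to 1941 in controls. Pecam1, the only gene of the stromal list with a row, had 154 to 797 with acLDL and 389.8 to 4908 in controls. Both were lowest in acLDL libraries 2 and 3. Col1a1, Col3a1 and Cxcl12 of the stromal list had no row, so Pecam1 alone does not speak for stromal cells. In bulk RNA, fewer cells of a type and less RNA per cell cannot be told apart.

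No antioxidant gene passed the threshold between acLDL and control. In mean log2 value, 6 of the 9 were lower with acLDL and 3 higher, where 55.7% and 44.3% of all tested genes were. Gpx4, Gpx1 and Nqo1 had the largest differences of the 9, all lower with acLDL, and in each of them acLDL libraries 2, 3 and 4 lay below every control while acLDL library 1 did not. Prdx1 had the same arrangement at a smaller size. Nfe2l2, Keap1, Gclm, Srxn1 and Txnrd1 differed by less than 0.33 in log2 units. The groups overlapped for all 9 genes, while they did not overlap for 5.64% of all tested genes. Their median log2 fold change was -0.23, and that of all tested genes -0.13. Differences are given as acLDL minus control on the scale of log2(value + 5), which understates the change of genes with low values.

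**Figure D1:**
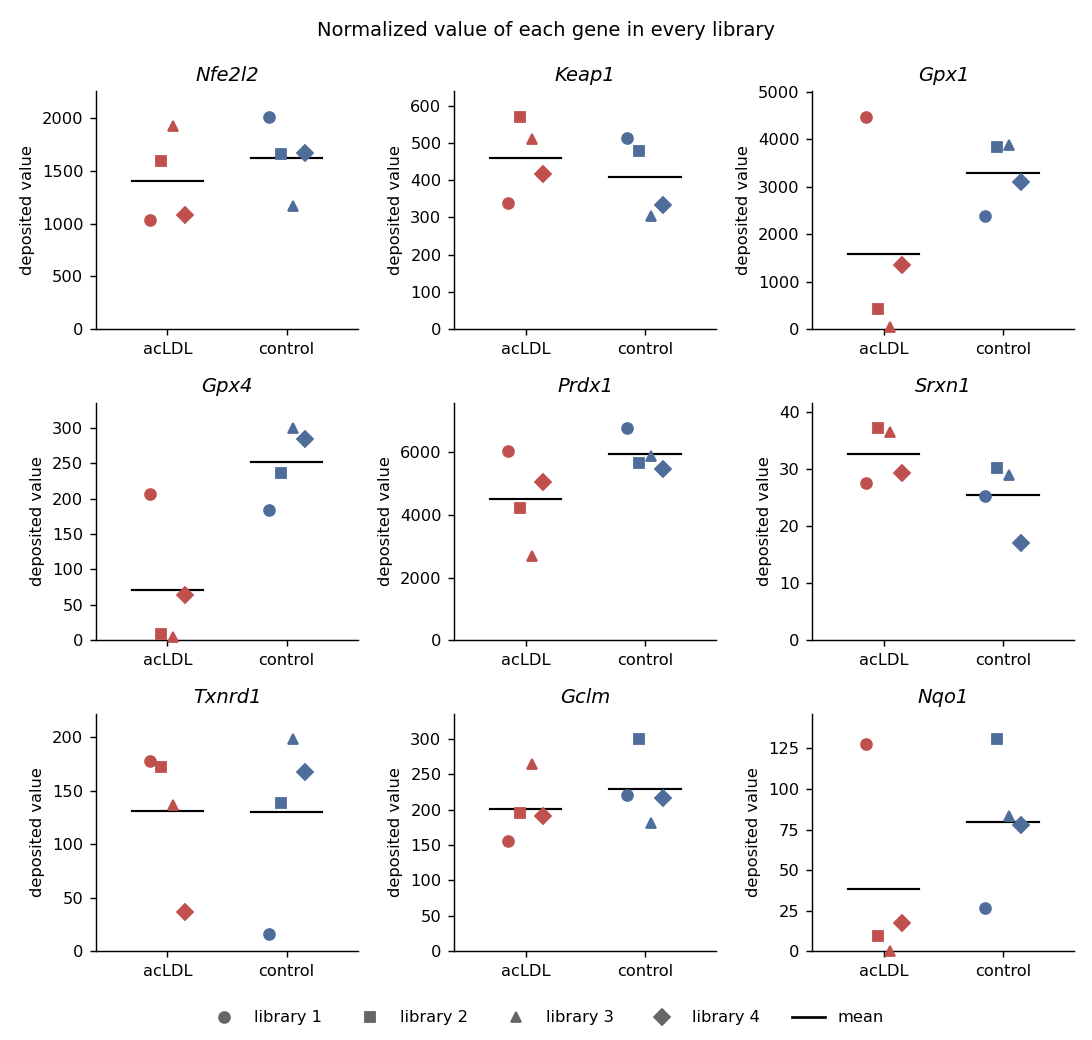
Deposited normalized value (vertical axes, linear from 0) of the 9 genes in acLDL and control libraries; each symbol is 1 library and the bar is the group mean. For Gpx1, Gpx4, Prdx1 and Nqo1, acLDL libraries 2, 3 and 4 lie below all 4 controls, and acLDL library 1 lies near or among them.

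Nfe2l2 (chromosome 2, 75675513 to 75704663, minus strand, GRCm38) had 1036, 1593, 1922 and 1086 in acLDL libraries 1 to 4, and 2013, 1658, 1163 and 1674 in control libraries 1 to 4. Both groups spanned much the same range. It averaged 1409 ± 424 with acLDL and 1627 ± 350.0 in controls (SD, n = 4 each). On the log2 scale this was a change of -0.23 (SE 0.26, limma adjusted p = 0.604). An exact two-sided permutation test over the 70 assignments gave p = 0.4, where the smallest p that 4 against 4 libraries allow is 0.0286. Its log2 fold change became -0.66 (SE 0.19) with the short-transcript index as a covariate, with adjusted p = 0.843, and -0.59 without acLDL libraries 2 and 3. In the fit with the index, the Nfe2l2 level was lower with acLDL, but not past the threshold over all genes. No acLDL library had an index within the control range of 0.06 to 1.07. The fit therefore rests on a slope taken as common to both groups, which the wider acLDL range of -2.25 to 1.11 mostly sets. The same holds for every value given with the index.

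Keap1, whose product is the NRF2 sensor and repressor, lies on chromosome 9 (21229730 to 21239332, minus strand). It had 337, 569.6, 509.5 and 415 in acLDL libraries 1 to 4, and 513, 478, 304 and 334 in control libraries 1 to 4. The means were 458 ± 102 with acLDL and 407 ± 104 in controls (SD, n = 4 each), and the groups overlapped. The log2 fold change was 0.17 (SE 0.25, limma adjusted p = 0.689), and it changed sign to -0.15 with the index and to -0.09 without acLDL libraries 2 and 3.

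The ratio of Nfe2l2 to Keap1 within each library was examined after the values were seen. It was 3.07, 2.80, 3.77 and 2.61 in acLDL libraries 1 to 4, and 3.92, 3.47, 3.82 and 5.02 in control libraries 1 to 4. It averaged 3.06 ± 0.51 with acLDL and 4.06 ± 0.67 in controls (SD, n = 4 each). The log2 ratio differed by -0.41, with p = 0.0571 in the exact two-sided permutation test, so the difference did not pass 0.05. acLDL library 3 lay above control library 2, and the other 3 acLDL libraries lay below every control.

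Among the enzymes that reduce peroxides, Gpx4 had the largest difference of the 9 genes. GPX4 is a selenoprotein that reduces phospholipid hydroperoxides within membranes, and its gene lies on chromosome 10 (80047166 to 80056439, plus strand). Gpx4 had 207, 8.20, 5.05 and 64.5 in acLDL libraries 1 to 4, and 185, 236, 299.8 and 284 in control libraries 1 to 4. acLDL libraries 2 and 3 were close to the lowest value that the table holds above 0, and acLDL library 1 exceeded control library 1. The means were 71.2 ± 94.6 with acLDL and 251 ± 52.0 in controls (SD, n = 4 each). The log2 fold change was -2.75 (SE 0.88), with limma adjusted p = 0.298. It was the only one of the 9 genes with an unadjusted p under 0.05, against 16.4% of all tested genes. The exact permutation test gave p = 0.0571, two-sided. With the short-transcript index the log2 fold change was -0.89 (SE 0.38, adjusted p = 0.965), and without acLDL libraries 2 and 3 it was -1.05, so it stayed below 0 in both fits and came nearer to it.

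Gpx1 encodes the abundant cytosolic glutathione peroxidase, also a selenoprotein, which reduces hydrogen peroxide (chromosome 9, 108339080 to 108340342, plus strand). Its values were 4471, 432, 36.6 and 1349 in acLDL libraries 1 to 4, and 2377, 3829.6, 3874 and 3099 in control libraries 1 to 4. acLDL library 1 was the highest of all 8 libraries and acLDL library 3 the lowest, 122-fold apart. Means were 1572 ± 2009 with acLDL and 3295 ± 708 in controls (SD, n = 4 each), with a log2 fold change of -2.49 (SE 1.2, limma adjusted p = 0.3004). The exact permutation test, two-sided, gave p = 0.143. With the short-transcript index as a covariate the log2 fold change changed sign to 0.03 (SE 0.51), and without acLDL libraries 2 and 3 it was -0.40. From the lowest to the highest, all 8 libraries stood in the same order for Gpx1 as for the index. Gpx1 is not part of the index, as its longest coding transcript has 1072 nt.

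Prdx1 encodes a peroxiredoxin, a thiol enzyme that reduces hydrogen peroxide with electrons from thioredoxin (chromosome 4, 116685599 to 116700000, plus strand). It had 6029, 4218, 2699.5 and 5052 in acLDL libraries 1 to 4, and 6774, 5645, 5896 and 5459.9 in control libraries 1 to 4. The means were 4499.7 ± 1410.0 with acLDL and 5944 ± 582 in controls (SD, n = 4 each), with a log2 fold change of -0.46 (SE 0.25, limma adjusted p = 0.317). acLDL library 1 lay within the controls, and the log2 fold change was -0.07 with the index and -0.10 without acLDL libraries 2 and 3.

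Srxn1 and Txnrd1 restore peroxiredoxins and thioredoxin. Sulfiredoxin, the product of Srxn1 (chromosome 2, 152105524 to 152111376, plus strand), rescues peroxiredoxins whose catalytic cysteine has been overoxidised. Srxn1 had 27.4, 37.1, 36.5 and 29.3 in acLDL libraries 1 to 4, and 25.2, 30.1, 28.9 and 17.1 in control libraries 1 to 4. acLDL libraries 2 and 3 were above every control, and the other acLDL libraries lay within the controls. The means were 32.6 ± 4.95 with acLDL and 25.3 ± 5.89 in controls (SD, n = 4 each), and the log2 fold change was 0.32 (SE 0.33, limma adjusted p = 0.553). The exact permutation test gave p = 0.143, two-sided, and the fold change was 0.19 with the index.

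Txnrd1 encodes the cytosolic thioredoxin reductase, a selenoprotein that passes electrons from NADPH to thioredoxin (chromosome 10, 82833951 to 82897724, plus strand). Its values were 177, 172, 137 and 36.5 in acLDL libraries 1 to 4, and 16.3, 139, 198 and 167 in control libraries 1 to 4. One low library in each group, acLDL library 4 and control library 1, set its spread. The means were 131 ± 65.3 with acLDL and 130.1 ± 79.6 in controls (SD, n = 4 each). The log2 fold change of 0.21 (SE 0.77, limma adjusted p = 0.885) changed to -0.55 without control library 1 and to 0.71 without acLDL library 4.

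Gclm encodes the modifier subunit of glutamate-cysteine ligase, which carries out the first step of glutathione synthesis (chromosome 3, 122245487 to 122267215, plus strand). It had 155, 196, 264 and 190.3 in acLDL libraries 1 to 4, and 220.0, 299, 181 and 217 in control libraries 1 to 4. Only acLDL library 1 lay below every control. The means were 201 ± 45.4 with acLDL and 229 ± 50.1 in controls (SD, n = 4 each). This gave a log2 fold change of -0.18 (SE 0.24, limma adjusted p = 0.653), and -0.44 (SE 0.25) with the index.

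Nqo1, widely used as a marker of NRF2 activity, encodes a quinone reductase (chromosome 8, 107388225 to 107403205, minus strand). It had 128, 9.17, 0 and 17.2 in acLDL libraries 1 to 4, and 26.8, 131, 83.4 and 77.7 in control libraries 1 to 4. Control library 1 was low as well, and acLDL library 1 stood at the level of the highest control. A value listed at 0 may stand for a low estimate, since no value lies between 0 and 5. The log2 fold change was -1.81 (SE 0.93, limma adjusted p = 0.305), with p = 0.171 in the exact two-sided permutation test. It changed sign to 0.12 (SE 0.42) with the index, and was -0.47 without acLDL libraries 2 and 3.

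**Figure D2:**
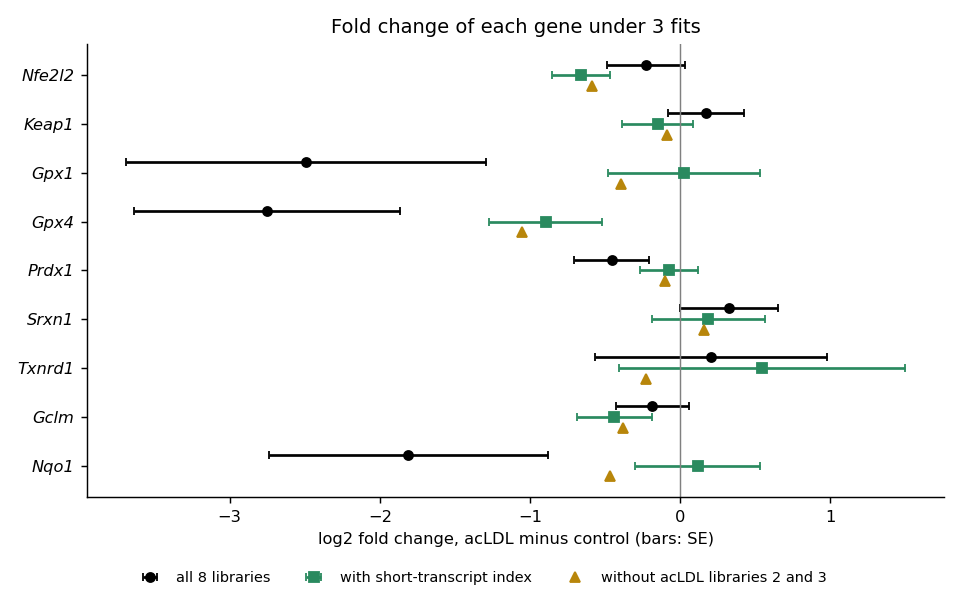
Log2 fold change (acLDL minus control) of the 9 genes with all 8 libraries, with the short-transcript index as a covariate, and without acLDL libraries 2 and 3; bars are SE where drawn. The values of Gpx1 and Nqo1 lie at -2.49 and -1.81 with all libraries and at 0.03 and 0.12 with the index, while Gpx4 lies at -2.75 and -0.89.

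Leaving out acLDL library 1, the acLDL library near or among the controls for Gpx1, Gpx4, Nqo1 and Prdx1, changed which genes were called. Without it, limma called Gpx4 (log2 fold change -3.59, adjusted p = 0.0231), Nqo1 (-2.69, adjusted p = 0.0312) and Gpx1 (-3.48, adjusted p = 0.0411), all lower with acLDL, or 3 of 9. Prdx1 did not pass (-0.62, adjusted p = 0.0753), nor did the other 5. Over the whole table, 2190 genes or 21.7% were called without that library, 7.28% higher and 14.4% lower. Leaving out any other single library called 0 genes, as did leaving out acLDL libraries 2 and 3.

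Gpx1, Gpx4, Nqo1 and Prdx1 varied together across libraries. In all 4 genes acLDL library 3 was the lowest, followed by acLDL libraries 2 and 4, and the index had that order too. Control library 1 came next for Gpx1, Gpx4, Nqo1 and the index, but was the highest library for Prdx1. By Pearson correlation of log2(value + 5) over the 8 libraries, a description with no test, Gpx1 was as close to Prdx1 (r = 0.956) as to Nqo1 (r = 0.931) and Gpx4 (r = 0.927). Summed granulocyte markers also had their 4 lowest values in acLDL libraries 2, 3 and 4 and control library 1, at 10844, 925, 489 and 3251 in acLDL libraries 1 to 4 and 5119, 11205, 12773 and 5604 in control libraries 1 to 4. The summed monocyte markers were 2257, 882, 1007 and 1425 in acLDL libraries 1 to 4 and 2110.2, 2590.5, 2608 and 2457 in control libraries 1 to 4. The part of short transcripts, granulocytes or monocytes in the low values of these genes was not tested beyond the fit with the index. The longest coding transcript was 995 nt for Gpx4, 1072 nt for Gpx1 and 1553 nt for Nqo1, the shortest of the 9. It was 2294 nt for Prdx1, 2475 nt for Nfe2l2, 2812 nt for Srxn1, 3614 nt for Keap1, 3622 nt for Txnrd1 and 5589 nt for Gclm. Set beside the promoter search, the 5 genes with a core match had log2 fold changes from -0.46 to 0.32. Of the 4 without a match, Keap1 was at 0.17 and the other 3 were between -2.75 and -1.81. Those 3 also have the shortest transcripts of the 9, and a tie between match and fold change was not tested.

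**Figure D3:**
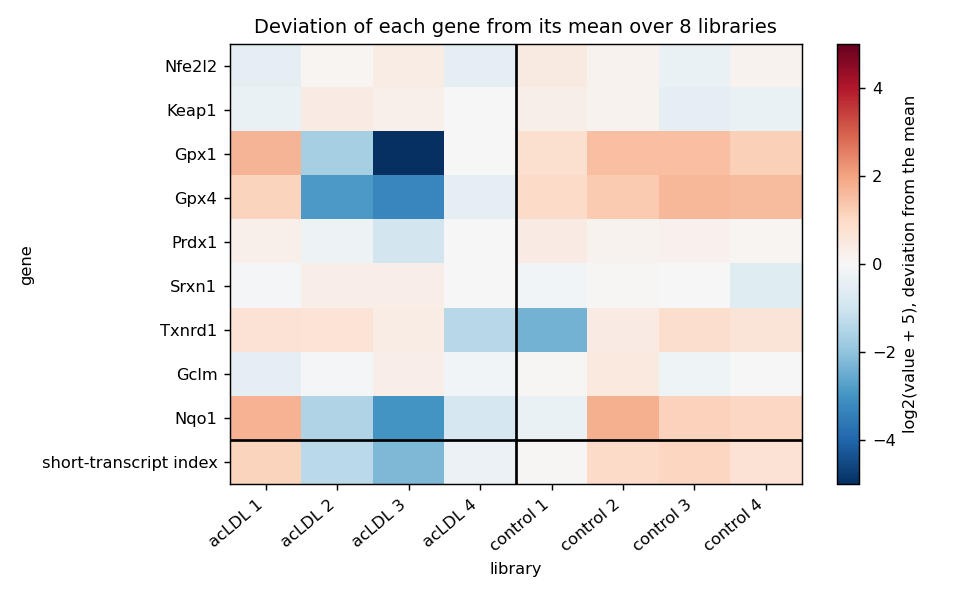
Deviation of log2(value + 5) of each gene from its mean over the 8 libraries, with the short-transcript index in the bottom row; acLDL libraries are left of the vertical line and controls right. Gpx1, Gpx4 and Nqo1 are low in acLDL libraries 2 and 3, as is the index, at -1.36 and -2.25, while Nfe2l2, Keap1, Srxn1 and Gclm show little colour in any library.

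**Figure D4:**
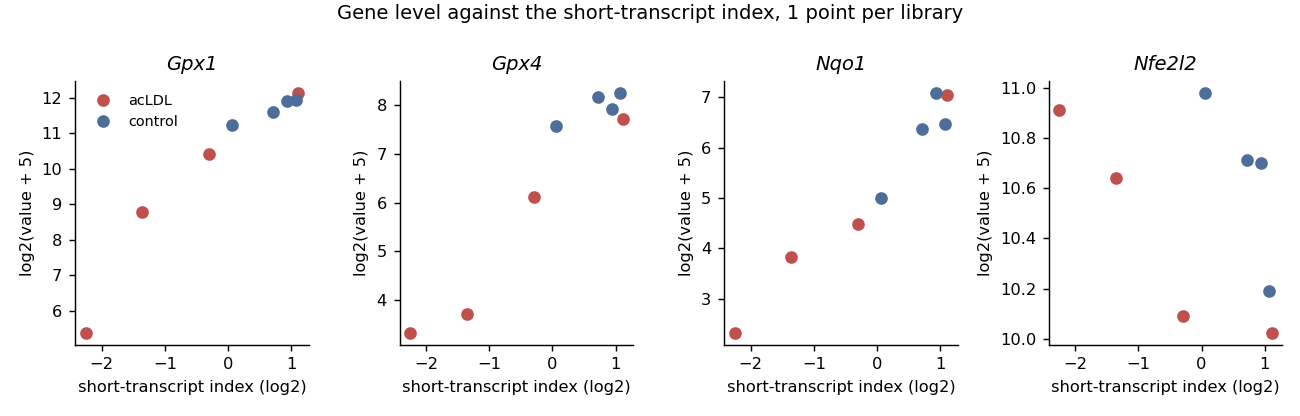
Level of 4 genes as log2(value + 5) against the short-transcript index of each library, with 1 point per library. Gpx1, Gpx4 and Nqo1 are lowest in acLDL libraries 3, 2 and 4, where the index is -2.25, -1.36 and -0.30, and Nfe2l2 shows no such order.

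Genes with the most similar pattern were found by Pearson correlation of log2(value + 5) over the 8 libraries, which share the differences in library composition described above; no test was made. For Gpx1 the nearest were Cotl1 (r = 0.999), which encodes an actin-binding protein, and Pgk1 (r = 0.999), which encodes a glycolytic kinase. The nearest genes to Gpx4 were Mapk14 and Tlr2 (r = 0.994 for both), with longest coding transcripts of 3592 and 3014 nt. Nqo1 was nearest to Lgals9 (r = 0.995) and Hsd17b4 (r = 0.991), and Prdx1 to Ccdc163 (r = 0.989) and Mtx1 (r = 0.986). Srxn1 was nearest to the transcription factor genes Spic (r = 0.977) and Tal1 (r = 0.969), and Nfe2l2 to Mga (r = 0.970) and E2f3 (r = 0.967). For Keap1 the nearest were Rnf168 (r = 0.963) and Ndc1 (r = 0.962), for Txnrd1 Uhrf1 (r = 0.975) and Hmgn2 (r = 0.969), and for Gclm Zc3h12d (r = 0.959) and Zeb2 (r = 0.908).

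Related genes were taken from 9 lists covering glutathione, thioredoxin, superoxide, NADPH, heme and quinones, NRF2 control, lipid peroxidation and selenoproteins. Of 152 genes, 130 were in the table and 120 were tested. None passed the threshold, as for the whole table. In mean log2 value, 29 were higher and 91 lower with acLDL, where 44.3% and 55.7% of all tested genes were. The median log2 fold change of the 120 was -0.54, and that of all tested genes -0.13. With the short-transcript index as a covariate both medians were near 0, at 0.02 for the lists and 0.01 for all tested genes. The unadjusted p was under 0.05 for 11 higher and 15 lower genes, against 7.42% higher and 8.93% lower among all tested. Groups did not overlap for 3 higher and 6 lower genes of the 120, against 3.44% and 2.2% of all tested genes. Without acLDL library 1, limma called 43 of the 120, 9 higher and 34 lower, where 7.28% higher and 14.4% lower were called among all tested genes.

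**Figure D5:**
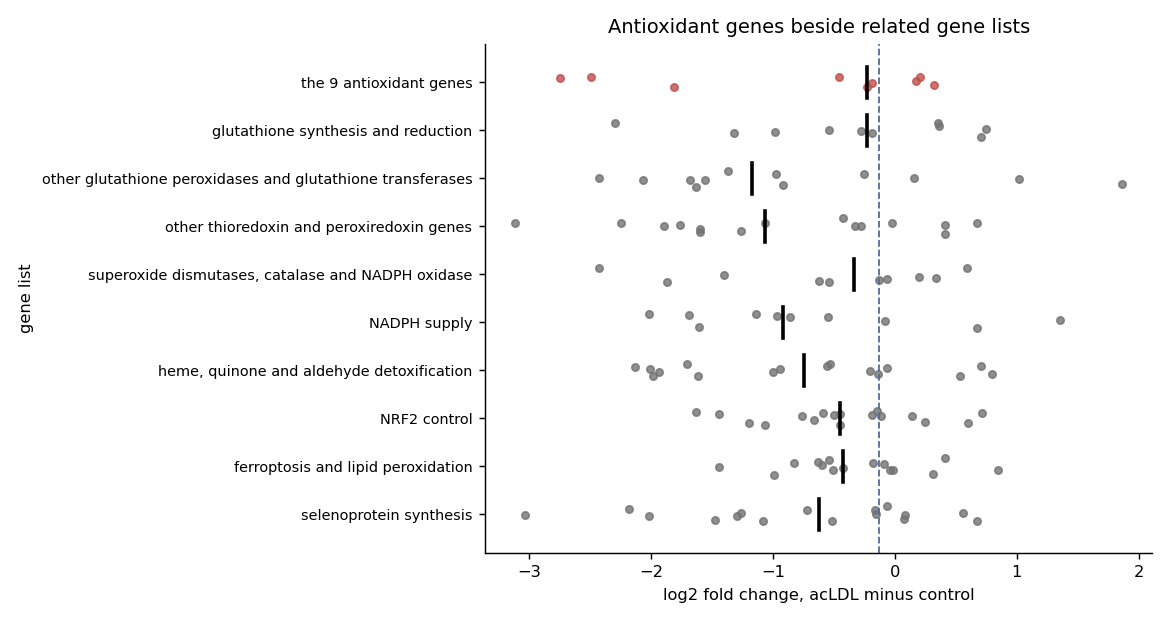
Log2 fold change (acLDL minus control) of the 9 antioxidant genes in red and of the genes of 9 related lists in grey, with 1 point per gene; black bars are list medians and the dashed line is the median of all tested genes, -0.13. The medians of glutathione peroxidases and transferases and of thioredoxin genes are the lowest, at -1.17 and -1.07.

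Genes that make and use glutathione had values on both sides. Of 10 tested genes for its synthesis and reduction, 4 were higher and 6 lower in mean log2 value (median -0.23). Glrx2, a glutaredoxin, averaged 993 ± 333 with acLDL and 565 ± 62.2 in controls (SD, n = 4 each), with limma adjusted p = 0.298. Glrx, its cytosolic relative, had 492, 22.4, 11.2 and 85.2 in acLDL libraries 1 to 4 and 73.6, 564, 519.9 and 491 in control libraries 1 to 4. Glrx3 averaged 1058 ± 301 with acLDL and 815 ± 205 in controls. Of 12 tested glutathione peroxidases and transferases, 3 were higher and 9 lower (median -1.17, and 0.09 with the index). The transferase gene Gstm1 averaged 199 ± 228 with acLDL and 640.4 ± 170.1 in controls, with a difference of -2.43 in log2 units (limma adjusted p = 0.298). Gsto1 averaged 493 ± 233 with acLDL and 562 ± 124 in controls (SD, n = 4 each). Gstm4 had 9.67, 0, 0 and 8.61 in acLDL libraries 1 to 4 and 13.4, 25.7, 19.8 and 21.7 in control libraries 1 to 4, with no overlap. Gstm genes resemble each other in sequence, so the split of reads between them is uncertain.

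Thioredoxin and peroxiredoxin genes went apart as well. Of 15 tested, 3 were higher and 12 lower (median -1.07, and 0.06 with the index). Prdx6, whose product can reduce phospholipid peroxides as GPX4 does, had 854, 1608, 1657 and 1201 in acLDL libraries 1 to 4 and 1144, 693, 679.9 and 771 in control libraries 1 to 4. Its log2 fold change was 0.68 (SE 0.27, limma adjusted p = 0.298), and 0.20 with the index. Txndc17, a thioredoxin-related gene, had 2975, 3354, 4242 and 3669 in acLDL libraries 1 to 4 and 2478, 2528, 2801 and 2844 in control libraries 1 to 4, without overlap (log2 fold change 0.41, adjusted p = 0.298). Its longest coding transcript is 981 nt, so it is itself one of the genes of the index. Txnrd3 was listed at 21.9, 0, 0 and 6.18 in acLDL libraries 1 to 4 and at 35.5, 19.2, 28.0 and 38.9 in control libraries 1 to 4. Txn1, which encodes thioredoxin, averaged 7484 ± 2949.6 with acLDL and 9792 ± 2646 in controls (SD, n = 4 each).

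Superoxide and NADPH genes showed 1 subunit of the phagocyte NADPH oxidase with separate groups. Ncf1, which encodes p47phox, had 475, 442, 443 and 385 in acLDL libraries 1 to 4 and 879.9, 738, 595 and 527 in control libraries 1 to 4. Its log2 fold change was -0.62 (SE 0.21, limma adjusted p = 0.298), and -0.66 with the index. Ncf4 averaged 95.3 ± 76.5 with acLDL and 211 ± 44.3 in controls, and Cybb 3229.7 ± 896 with acLDL and 3313 ± 495 in controls (SD, n = 4 each). Of 10 tested genes of superoxide handling, 3 were higher and 7 lower (median -0.33). Of 10 genes that supply NADPH, 2 were higher and 8 lower (median -0.91, and 0.06 with the index). Tkt, a pentose phosphate enzyme, averaged 2926 ± 1345 with acLDL and 1713 ± 533 in controls, and Taldo1, another enzyme of that route, 399 ± 473 with acLDL and 813 ± 218 in controls. Idh1 averaged 43.6 ± 31.4 with acLDL and 98.1 ± 39.6 in controls. Me1 had 18.4, 11.6, 12.2 and 11.8 in acLDL libraries 1 to 4, and was listed at 15.8 in control library 3 and at 0 in the other 3 controls.

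Heme and quinone genes were lower in mean log2 value for 13 of 16 tested (median -0.75, and -0.01 with the index). Hmox2, the constitutive heme oxygenase, had 712, 519, 415 and 545 in acLDL libraries 1 to 4 and 858, 721, 741 and 809 in control libraries 1 to 4. The groups did not overlap, although acLDL library 1 was close to control library 2 (log2 fold change -0.53, SE 0.20, limma adjusted p = 0.298), and the log2 fold change was -0.29 with the index. Blvrb, a biliverdin reductase, averaged 1422 ± 413 with acLDL and 1591 ± 96.7 in controls, and Akr1a1, an aldehyde reductase, 706 ± 883 with acLDL and 1704 ± 556 in controls (SD, n = 4 each). Akr1b10 was listed at 20.5, 0, 0 and 10.2 in acLDL libraries 1 to 4 and at 13.3, 27.2, 45.6 and 31.5 in control libraries 1 to 4.

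Among 17 tested genes of NRF2 control, 4 were higher and 13 lower (median -0.45, and -0.15 with the index). Sqstm1, whose product p62 binds KEAP1 and is itself an NRF2 target, had 1208, 2465, 2766 and 1951 in acLDL libraries 1 to 4 and 1344, 1155, 1108 and 1285 in control libraries 1 to 4. All acLDL libraries but the first lay above every control, with a log2 fold change of 0.71 (SE 0.26, limma adjusted p = 0.298) and 0.23 with the index. Rbx1, a subunit of the CUL3 ligase, averaged 4609 ± 1195 with acLDL and 2971 ± 439 in controls (SD, n = 4 each). Its log2 fold change was 0.60, and 0.23 with the index.

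Alox5 and Por, genes of lipid peroxidation, had nearly the same difference with and without the index. Alox5, which encodes the lipoxygenase that oxidises arachidonic acid, had 345, 353, 307 and 368 in acLDL libraries 1 to 4 and 227, 137, 207 and 196 in control libraries 1 to 4. The groups did not overlap. The log2 fold change was 0.84 (SE 0.21), 0.85 with the index, with limma adjusted p = 0.298. Por, the cytochrome P450 reductase, had 14.7, 6.55, 7.06 and 5.31 in acLDL libraries 1 to 4 and 44.3, 33.1, 17.2 and 32.5 in control libraries 1 to 4. Its log2 fold change was -1.45 (SE 0.43, adjusted p = 0.298), and -1.30 with the index, and its groups did not overlap either. In acLDL libraries 2, 3 and 4 Por was close to the lowest deposited value above 0, so the size of its difference is uncertain. Of 15 tested genes of this list, 3 were higher and 12 lower in mean log2 value (median -0.42). Vdac2 averaged 2027 ± 341 with acLDL and 1610.4 ± 82.3 in controls, and Gch1 666 ± 208 with acLDL and 654 ± 72.8 in controls (SD, n = 4 each).

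Selenoprotein genes are the wider group to which Gpx1, Gpx4 and Txnrd1 belong. With factors of selenoprotein synthesis, 12 of 16 tested were lower in mean log2 value (median -0.62, and 0.03 with the index). Msrb1, a methionine sulfoxide reductase, had 1361, 278, 45.8 and 331 in acLDL libraries 1 to 4 and 862, 1436, 1073 and 1299 in control libraries 1 to 4. It had 3 acLDL libraries below every control and acLDL library 1 within them, as Gpx4 did. Selenos, of the endoplasmic reticulum, averaged 71.4 ± 62.2 with acLDL and 175 ± 56.9 in controls, and the difference was -1.48 in log2 units (limma adjusted p = 0.298). Selenok averaged 963 ± 42.7 with acLDL and 909 ± 92.4 in controls (SD, n = 4 each), and its log2 fold change was 0.09, so selenoprotein genes did not all have low values in acLDL libraries 2 and 3.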

How the data were processed

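Poly(A) RNA was extracted on RNeasy columns and made into libraries with the Lexogen QuantSeq V2 kit, which reads message 3' ends, per the labels' protocols. The design text speaks of 5' quantification instead. The tools were bcl2fastq 2.20 and kallisto, with mm10 (GRCm38), per the submitters' processing notes. Not given in the sources used here are annotation, normalization and filters. The deposited file gives a normalized signal per gene. Its values are not whole: 11.0% to 12.8% of those under 200 were whole multiples of 1 step within 0.01 steps, so reads could not be recovered and no counting interval was computed. Read depth per library is therefore unknown. Kallisto shares reads between similar transcripts, and Gpx4 has 1 named pseudogene.

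Genes with at least 10 in at least 4 libraries were fitted with limma 3.58.1 (R 4.3.3) on log2(value + 5) with trend and robust moderation and group as the only term. Benjamini-Hochberg adjustment ran over 10091 genes. The genes and lists were chosen with earlier results of these data known. Named list genes are, per list, the 2 with the smallest p and the 2 with the highest mean, and some are not reported here. Transcript lengths came from GENCODE M21 and promoters and coordinates from RefSeq. Alternatives changed the scaling, filter, pseudocount, weights, libraries, replicate block or covariate.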

Additional observations from a re-analysis of the deposited data

Results flagged for a closer look

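A library stood apart from the other 3 of its group, by the ratio of its gap to the group's range, in 1 of 18 groups of the 9 antioxidant genes and in 9 of 82 groups when 32 named list genes were added. Chance gives about 1 in 20 groups for independent values with a normal distribution. The values were not log transformed and the groups share the same libraries, so these counts cannot be set against that rate. Nqo1 had 128 in acLDL library 1, against 0 to 17.2 in the other acLDL libraries. The same library was the highest of its group for Glrx (492), Gsto1 (842), Me1 (18.4) and Idh1 (90.7). Control library 1 was the lowest of its group for Glrx (73.6), Txn1 (5836) and Idh1 (39.0). Me1 was listed at 15.8 in control library 3 and at 0 in the other controls.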

How the results depend on the processing

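Over 18 alternatives, 148 of 161 fold changes of the 9 genes kept their direction and their side of the threshold, 5 gained a call and 8 changed sign. Srxn1 could not be tested at a minimum of 50. Txnrd1 changed sign without acLDL library 1 (-0.01), control library 1 (-0.55, where leaving out others gave up to 0.71) or acLDL libraries 2 and 3 (-0.23) and with array weights (-0.93). Keap1 did so without acLDL libraries 2 and 3 (-0.085) and with the short-transcript index (-0.15), and Gpx1 (0.026) and Nqo1 (0.12) with that index. The cause was not tested. The count of called genes, 0, ranged from 0 to 2190 when libraries were left out, from 0 to 3 for the 9 genes and from 0 to 43 for the list genes, each with its highest value without acLDL library 1. With array weights, which let libraries differ in precision, 1957 genes passed, among them 32 list genes and 2 of the 9, Gpx4 (adjusted p = 0.0320) and Nqo1 (adjusted p = 0.0409). Quantile normalization called 1 gene and moved the median of all genes by 0.28 to 0.15, and relative to it Gpx4 was at -2.47, Nfe2l2 at -0.43 and Keap1 at 0.06.

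With the replicate number as a block, 0 genes passed. Same-numbered libraries did not deviate together (correlations -0.55, -0.21, -0.28 and 0.03 for numbers 1 to 4), so the numbers were not taken as pairs. Low values limit Nqo1 and Gpx4, which lie near the table's floor in some libraries, and Srxn1, which lay between 17.1 and 37.1. Por of the related lists lay near that floor in acLDL libraries 2, 3 and 4.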
